A study of Mus musculus with 6 samples.

Results

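The 290 genes described here carry the mouse symbol Zfp followed by a number and were chosen by name and level, out of 343 such symbols and 34590 gene symbols in all. The rule kept every such symbol except Zfp750 with a mean of at least 2 CPM (counts scaled to the total of all gene counts of a library) over the 6 libraries. RNA was measured in skin of C57BL/6 mice that received imiquimod on the skin surface for 2 days, with 3 libraries from Tnip1+/+ (wild type) and 3 from Tnip1-/- (knockout) mice. Imiquimod is an agonist of Toll-like receptor signalling used to model psoriasis in mice, and Tnip1 encodes a protein that works with A20 to limit NF-kB activity. All 6 mice had imiquimod, and untreated skin was not analysed here. The labels give neither the part of Tnip1 that was deleted nor the age of the mice. The submitters' library identifiers carry one prefix in wild type and another in knockout, with no stated meaning, so identifier set and genotype cannot be told apart.

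The symbol Zfp joins proteins by a zinc-binding fold, not by one role. Most members are C2H2 proteins, whose repeated fingers each hold a zinc ion and read a few bases of DNA. Many also carry a KRAB box, which recruits the corepressor Trim28 (KAP1) and the histone methyltransferase Setdb1 to silence transposable elements and other targets. A minority do not act on DNA: Zfp36 (tristetraprolin) binds AU-rich elements of cytokine mRNAs through CCCH fingers and brings in the deadenylase complex, Zfp598 marks collided ribosomes, and Zfp185 is an actin-associated LIM protein.

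The outcome for the group was a median shifted downwards in knockout skin, although 60 of the 290 genes lay above 0. Of the 290 genes, 113 fell and 14 rose by edgeR's quasi-likelihood test with p-values adjusted (Benjamini-Hochberg) over all 16691 tested genes, and 163 did not pass an adjusted p of 0.05. Of the 290, 17 averaged at least 2 CPM in wild type alone, and most of these fell. Another 3 did so in knockout alone, and all of these rose. Such members passed the level rule through the group where they are high, so their calls are a description. The median log2 fold change of the 290, knockout minus wild type, was -0.37. Zfp39 fell furthest, from 15.8 to 4.18 CPM in the means, whereas Zfp488, Zfp941 and Zfp593 were the members that rose by at least 1 on the log2 scale. Zfp488 and Zfp941 passed the level rule through the knockout libraries alone, where they are high. Zfp36, the best known mRNA-binding member, was not among the genes that rose: its change was -0.21 (SE 0.34) with overlapping libraries and a sign that turned when single libraries were left out.

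Promoter sequences are shown for 3 members as examples: the largest decrease (Zfp39), one of the largest increases (Zfp941) and the mRNA-binding Zfp36. Each run is the 250 bases before the annotated start in RefSeq on GRCm38.p6, 5′ to 3′ on the strand of the gene. All 3 genes lie on the minus strand, Zfp39 at chr11:58904226-58904475, Zfp941 at chr7:140822179-140822428 and Zfp36 at chr7:28379229-28379478. Capitals mark matches to the searched motifs, which here are GC boxes, CCAAT boxes and an interferon-response core, on either strand.
Zfp39: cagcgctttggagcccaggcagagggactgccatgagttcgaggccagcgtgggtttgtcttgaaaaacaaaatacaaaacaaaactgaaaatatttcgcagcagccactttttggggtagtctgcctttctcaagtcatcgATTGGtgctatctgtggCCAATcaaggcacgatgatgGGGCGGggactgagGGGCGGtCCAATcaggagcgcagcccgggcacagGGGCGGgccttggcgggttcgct
Zfp941: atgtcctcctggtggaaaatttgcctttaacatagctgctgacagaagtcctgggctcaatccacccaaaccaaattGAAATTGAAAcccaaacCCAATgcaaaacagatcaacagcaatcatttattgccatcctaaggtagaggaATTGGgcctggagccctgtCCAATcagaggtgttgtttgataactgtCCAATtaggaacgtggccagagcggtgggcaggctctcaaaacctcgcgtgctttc
Zfp36: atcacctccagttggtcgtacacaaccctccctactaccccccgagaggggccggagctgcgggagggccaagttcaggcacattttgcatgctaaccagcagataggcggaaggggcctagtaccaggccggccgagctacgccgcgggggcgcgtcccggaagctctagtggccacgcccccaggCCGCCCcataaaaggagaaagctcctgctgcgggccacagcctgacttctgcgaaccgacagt
The Zfp39 run holds 3 GC boxes and 3 CCAAT boxes, that of Zfp941 holds 4 CCAAT boxes and the interferon-response core, and that of Zfp36 holds 1 GC box. The run of Zfp488, the largest increase, is not shown and holds GC boxes and no other searched motif.

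A RefSeq window of 300 bases (250 before and 50 after the start) was found for 239 members and for 27025 genes in all. Motifs were searched as letters on both strands, and matches to different motifs may overlap. A gene with several windows was counted once, by a match in any of them and by its largest number of CG pairs. The AP-1 letters (TGA, any base, TCA) were in 4.18% of member windows and 8.97% of all windows, and TATAAA was in 7.53% and 15.7%. The GC box GGGCGG was in 51.5% and 38.2%, CCAAT in 50.2% and 41.1%, and TGACGTCA in 4.18% and 2.03%. An NF-kB motif was in 4.18% and 5.14%, and the interferon-response core, which is GAAA repeated after any 2 bases, in 2.93% and 3.99%. The median number of CG pairs was 16 in member windows and 8 in all windows. Among the 97 members that fell and had a window, the shares were 3.09% for AP-1, 3.09% for NF-kB, 47.4% for the GC box and 45.4% for CCAAT. Of the 10 members that rose and had a window, 1 held the interferon-response core. Members thus held TATAAA and AP-1 letters in smaller shares and GC and CCAAT boxes in larger shares than all genes with a window. Those 27025 genes were taken whatever their level in skin, so level and family cannot be told apart here. These matches describe letters and not binding.

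Tnip1 was low in each knockout library, which checks the labels. It stood at 28.1, 25.1 and 26.0 TMM-scaled CPM in wild type replicates 1 to 3 and at 2.02, 1.57 and 1.83 in knockout replicates 1 to 3. Gene counts per library ran from 24701074 to 31005554 in wild type and from 19529970 to 25864730 in knockout, so that 3 counts correspond to 0.0968 to 0.154 CPM. Markers of several other cell types moved with genotype. Summed levels of 12 skeletal muscle markers were 10730 to 19030 CPM in wild type and 3607 to 5359 in knockout, and those of 10 adipocyte markers 3936 to 8778 and 292.8 to 2158. Of these markers 11 and 5 fell, and no muscle or adipocyte marker was at 0 in all libraries. Summed levels of 9 neutrophil markers were 28.9 to 165 CPM in wild type and 7400 to 12080 in knockout, and the 8 tested all rose. Keratinocyte markers summed to 7680 to 12520 CPM in wild type and 20960 to 24380 in knockout (5 of 8 rose and 2 fell), and the 4 of stressed keratinocytes to 704.5 to 1026 and 25980 to 33490, all 4 higher. Schwann cell markers summed to 241.1 to 315.6 and 134.9 to 176.8 (5 of 6 fell). Endothelial sums (190.9 to 349.7 in wild type, 162.4 to 190.5 in knockout) and hair follicle sums (36.87 to 109.2 and 26.71 to 36.12) nearly touched between the genotypes. Fibroblast, macrophage, T cell and mast cell sums overlapped between them. Of the tested markers, 3 of 7 fibroblast, 3 of 6 endothelial, 2 of 5 hair follicle and 2 of 8 T cell genes fell, and 0 rose. Of 7 macrophage markers 2 rose and 0 fell, and no mast cell marker was called. The part of these cell types in the Zfp values was not tested. Fewer cells of a type and less RNA per cell cannot be told apart in these bulk samples.

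Of the 13978 tested genes that averaged at least 2 CPM, 22.4% fell and 24.5% rose, with a median log2 fold change of 0.01. Over all 16691 tested genes the shares were 22.7% and 22.3%. Against that background 39.0% of the Zfp genes fell and 4.83% rose. Below 0 lay 230 of 290 members (79.3%), compared with 49.3% of the 13978 genes. The libraries of the genotypes did not overlap for 185 members (63.8%, against 61.7% of the 13978 genes). Knockout was the lower in 157 of these (54.1% of members, against 29.8% of the 13978 genes) and the higher in 28. The decreases were small in size: 31 members fell by at least 1 on the log2 scale (10.7%, against 10.9% of the 13978 genes), and 3 rose by as much (1.03%, against 9.06%), so the family differed from the background in how many genes moved down and not in how many fell far. At the smallest called decrease, Zfp148 fell by 0.29, a value that turned to 0.02 with a GC and length offset and kept its call in 1 of 6 refits without a library (that without wild type replicate 1).

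**Figure D1:**
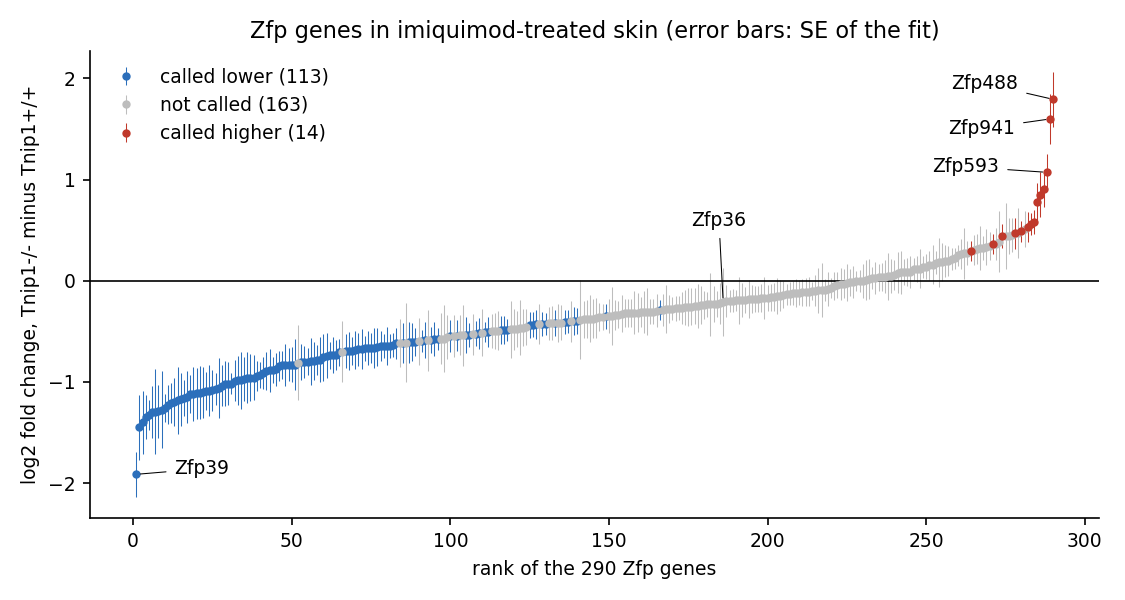
Log2 fold change (knockout minus wild type) of the 290 Zfp genes in rank order, with the standard error of the fit as bars and calls in colour. The 113 decreases fill the left end, the 14 increases the right end, and Zfp36 lies among the 163 genes without a call.

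With library totals in place of TMM scaling, 141 members fell and 8 rose, and the median of all tested genes moved from -0.04 to -0.19. Over all tested genes, 28.8% fell and 14.9% rose with library totals. The members' median minus that of all genes of at least 2 CPM stayed between -0.34 and -0.40 in every setting fitted. When a score of muscle and fat markers entered the fit, 7 members (Zfp318, Zfp39, Zfp462, Zfp651, Zfp652, Zfp667 and Zfp704, of which Zfp318, Zfp652 and Zfp704 were named after their values were seen) fell and 1 (Zfp488) rose, while the median stayed at -0.37. That score separated the genotypes, from 8.355 to 9.343 in wild type and from 4.946 to 7.506 in knockout, and calls over all tested genes dropped from 7525 to 1800. The part of tissue make-up in the shift was not tested.

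The shift was visible library by library. The median deviation of the members from their own mean over the 6 libraries, on the log2 scale, was 0.12, 0.22 and 0.19 in wild type replicates 1 to 3. It was -0.21, -0.16 and -0.12 in knockout replicates 1 to 3, whereas the same median over all genes of at least 2 CPM lay between -0.02 and 0.02. Summed over the 290 genes, the level was 5978, 6393 and 6158 TMM-scaled CPM in wild type and 4996, 5139 and 5247 in knockout. The genotypes did not overlap in either measure. Wild type replicate 2 held the highest value for 124 members and knockout replicate 1 the lowest for 113. Muscle and fat sums were highest in wild type replicate 2 (19030 and 8778 CPM), which also had the highest Zfp median. Wild type libraries had the same order in these measures. Among knockout libraries, both sums were lowest in replicate 2, whose Zfp median lay between those of the other knockout libraries. The part of tissue make-up in this was not tested. The spread between replicates was modest, with a median coefficient of variation of 11.5% in wild type and 9.78% in knockout.

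Proteins were sorted by patterns in the reference coding sequence: KRAB box, and number of C2H2 fingers (2 to 4 residues between the cysteines, 12 to the first histidine, 3 to 5 between the histidines). Of the 142 members with a KRAB pattern, 64 fell and 5 rose, with a median of -0.47. Of the 120 with at least 3 fingers and no KRAB pattern, 41 fell and 3 rose, with a median of -0.27. Of the 25 with fewer than 3 fingers and no KRAB pattern, 7 fell and 6 rose, with a median of -0.19. A further 3 (Zfp125, Zfp783 and Zfp939) had no coding sequence in the reference, and 1 of them fell. Members with a KRAB pattern thus supplied 64 of the 113 decreases (56.6%, against 49.0% of all members). The group with few fingers held 6 of the 14 increases. The pattern was searched in a single reference protein per gene, so a box can be missed. In the group with few fingers 24.0% rose and 28.0% fell, near the 24.5% and 22.4% of all genes of at least 2 CPM. The differences between classes were not tested.

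**Figure D2:**
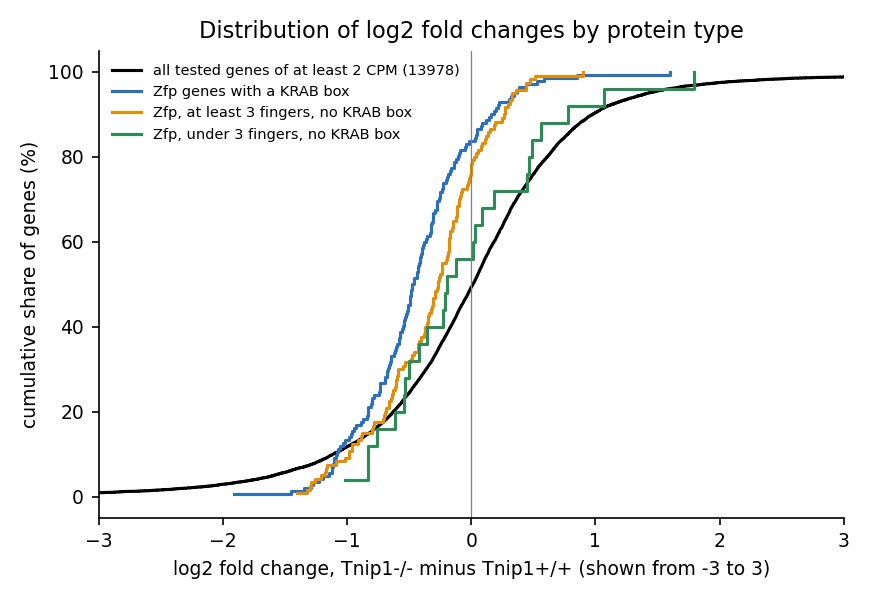
Cumulative share of genes (percent) against log2 fold change for all 13978 tested genes of at least 2 CPM and for 3 protein types among the Zfp genes. The curve of KRAB proteins lies left of that of all genes around 0 and crosses it near -1, whereas the curve of proteins with under 3 fingers is nearer to it, with medians of -0.47, 0.01 and -0.19.

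By number of fingers, the share that fell was larger from 7 fingers upwards, with no steady order over the 4 ranges and no test of the difference. Among 26 members with 0 to 2 fingers, 7 fell and 6 rose, and among 43 with 3 to 6 fingers, 10 fell and 2 rose. Among 127 with 7 to 12 fingers, 52 fell and 6 rose. Among 91 with 13 or more fingers, 43 fell and 0 rose. The shares that fell were 26.9%, 23.3%, 40.9% and 47.3% in this order. Those under 7 fingers were near the 22.4% of all genes of at least 2 CPM. The shares that rose were 23.1%, 4.65%, 4.72% and 0%, against 24.5% of all genes of at least 2 CPM. Medians were -0.16, -0.12, -0.40 and -0.50. The count of 0 increases stands beside 4 members of that group whose knockout libraries all lay above wild type. Across the 287 members with a protein, Pearson's r between fingers and log2 fold change was -0.26 and Spearman's rho was -0.27, as a description across genes that share the 6 libraries.

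**Figure D3:**
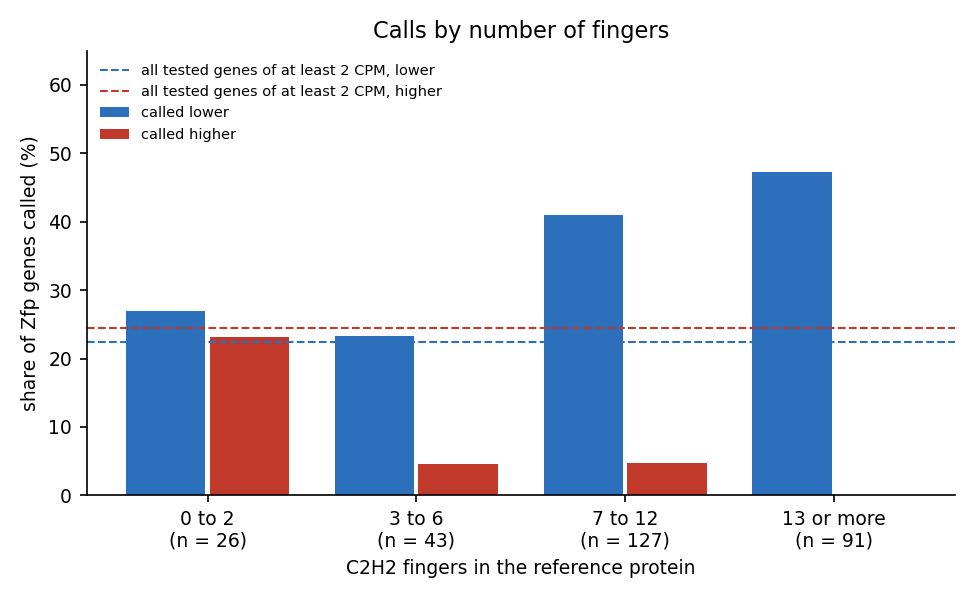
Share of Zfp genes called lower or higher (percent) by number of C2H2 fingers, with dashed lines for all tested genes of at least 2 CPM (22.4% lower, 24.5% higher). Calls in the lower direction reach their largest share at 13 or more fingers, where no member was called higher.

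Base composition moved with these classes. The median GC content of the transcripts was 42.0% in KRAB members, 43.7% in members that fell and 49.5% in members that rose. Of 137 members with under 45% GC, 65 fell and 3 rose, with a median of -0.49. Of 105 members with 45% to 55% GC, 38 fell and 7 rose (median -0.29), and of 48 with 55% or more, 10 fell and 4 rose (median -0.20). All genes of at least 2 CPM followed the same order with medians of -0.13, 0.01 and 0.13, and in each of the 3 ranges the Zfp median was the lower one. From low to high GC, 47.45%, 36.19% and 20.83% of members fell, against 27.6%, 22.72% and 17.16% of all such genes. At 55% GC or more, the share of members that fell was thus near that of all genes. Increases made up 2.19%, 6.667% and 8.333% of members, against 20.27%, 24.96% and 27.46% of all such genes. With a GC and length offset, 84 members fell, 23 rose and the median was -0.27. Over all tested genes, 20.8% fell and 26.6% rose with that offset. Level followed a similar order: medians were -0.57, -0.42, -0.33 and -0.19 for members at 2 to 5, 5 to 10, 10 to 20 and at least 20 CPM. The 29 tested Zfp genes below the threshold, 11 of which fell and 1 of which rose, had a median of -0.58.

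Just inside the threshold were Zfp940, Zfp296 and Zfp599 at 2.005, 2.031 and 2.079 CPM, and just outside it Zfp934, Zfp300 and Zfp964 at 1.961, 1.938 and 1.934 CPM. Means in both genotypes were at least 2 CPM for 270 members, in wild type alone for 17 and in knockout alone for 3. Most of the 17 were called lower, and the 3 (Zfp488, Zfp599 and Zfp941) were all called higher. All 290 passed the filter on low counts. Of the 53 symbols below the threshold, 5 had no count in any library.

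Of the 10 largest decreases, 5 were of genes with a KRAB pattern, which 142 of the 290 members (49.0%) had. Zfp39, a KRAB protein, stood at 12.98, 20.1 and 14.2 TMM-scaled CPM in wild type and 3.75, 4.83 and 3.97 in knockout. The libraries were widely separated. It fell by 1.91 (SE 0.22, adjusted p = 0.00126, edgeR with Benjamini-Hochberg adjustment). Zfp667, a KRAB protein, stood at 12.4, 10.4 and 12.7 in wild type and 3.27, 5.42 and 5.27 in knockout, and fell by 1.35 (SE 0.22). Zfp30, also with a KRAB box, stood at 4.05, 4.72 and 4.73 and at 1.12, 1.35 and 2.51, and fell by 1.45 (SE 0.32). In both, every knockout library was below every wild type library. Zfp30, and Zfp963 described next, passed the level rule through the wild type libraries alone, where they are high. Zfp963 and Zfp641 fell by 1.29 (SE 0.42) and 1.27 (SE 0.38), each with wild type replicate 2 far above the other wild type libraries. When 1 library was left out at a time, both calls were lost without wild type replicate 2 and without knockout replicate 1 or 2, and that of Zfp641 also without knockout replicate 3.

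The other 5 of the 10 had C2H2 fingers and no match to the KRAB pattern, a search that can miss a box. Zfp462, a many-fingered nuclear protein, stood at 17.1, 19.0 and 15.4 CPM in wild type and 6.85, 7.62 and 6.06 in knockout, and fell by 1.32 (SE 0.15, adjusted p = 0.00133, edgeR with Benjamini-Hochberg adjustment). Zfp651 stood at 28.8, 27.8 and 22.7 and at 11.7, 10.0 and 11.5, and fell by 1.26 (SE 0.14). Replicates of both were tight and the genotypes far apart. Zfp423, which marks and drives preadipocyte commitment, stood at 6.59, 10.5 and 6.84 and at 4.22, 2.16 and 2.66, and fell by 1.40 (SE 0.31). Its relative Zfp521, a regulator of mesenchymal progenitors, fell by 0.79 (SE 0.19), and Zfp467, which favours fat over bone, fell by 0.98 (SE 0.28), with its call lost without wild type replicate 1 or 2 and without knockout replicate 1 or 2. These 3 genes fell in the same libraries in which adipocyte markers were low, and the part of fat tissue in this was not tested. Zfp516, a factor of brown fat, was at 47.0, 31.4 and 36.3 in wild type and 41.9, 35.3 and 37.5 in knockout, with overlapping libraries and no call. Zfp37 and Zfp708 fell by 1.30 (SE 0.26) and 1.29 (SE 0.26).

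**Figure D4:**
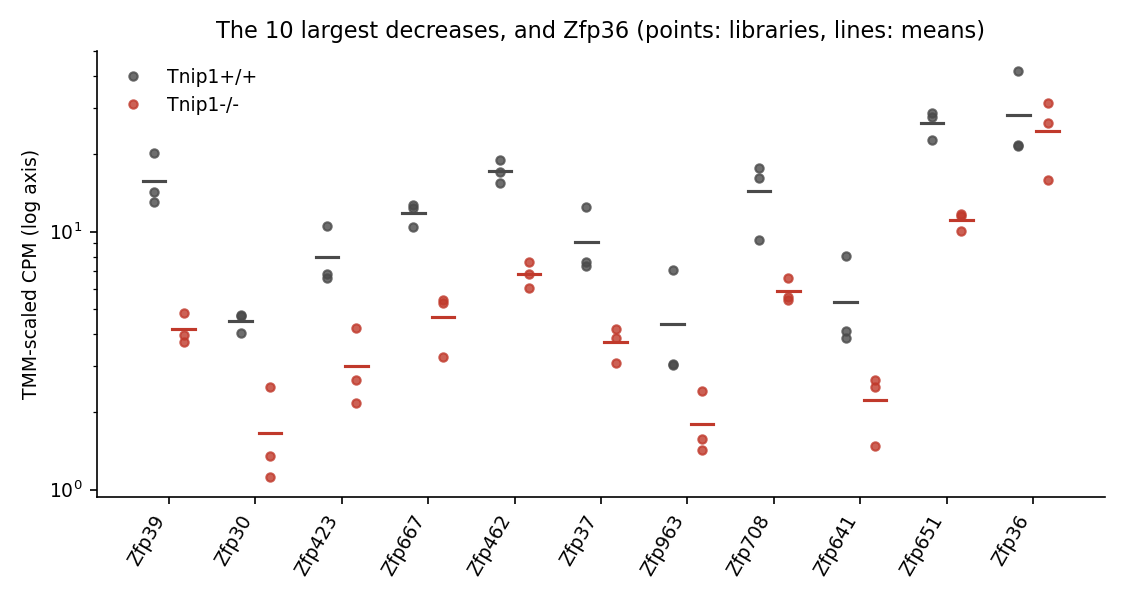
TMM-scaled CPM (log axis) of the 10 largest decreases and of Zfp36 in each library, with lines for the means of 3 wild type and 3 knockout libraries. The genotypes are separate for each of the 10 decreases and overlap for Zfp36.

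The 14 members that rose were chosen by that call, and their values are a description. Zfp488, a nuclear regulator of the oligodendrocyte lineage, stood at 1.23, 0.849 and 0.777 CPM in wild type and 3.45, 2.88 and 3.65 in knockout, a rise of 1.79 (SE 0.27, adjusted p = 0.00294, edgeR with Benjamini-Hochberg adjustment). Zfp941, a KRAB protein, stood at 1.32, 1.12 and 1.07 and at 3.96, 3.94 and 2.77, a rise of 1.60 (SE 0.25). Both were near the bottom of the level range and did not overlap between genotypes. Zfp692, a C2H2 protein, stood at 15.4, 10.2 and 13.7 and at 23.47, 24.97 and 25.05, a rise of 0.90 (SE 0.17).

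The remaining 11 genes differ in what they are known for. Zfp593, which takes part in assembly of the large ribosomal subunit, stood at 6.29, 4.96 and 5.07 CPM in wild type and 12.96, 11.68 and 9.66 in knockout, a rise of 1.07 (SE 0.18). Zfp622, another factor of large-subunit maturation, stood at 22.7, 22.0 and 22.5 and at 28.5, 26.5 and 27.3, a rise of 0.29 (SE 0.10) whose call was lost in each refit without a library. Zfp598, the ubiquitin ligase of collided ribosomes, stood at 34.5, 25.9 and 31.0 and at 45.6, 43.8 and 37.0, a rise of 0.47 (SE 0.15). Its call was lost without wild type replicate 2 or 3 and without knockout replicate 1 or 2. None of the 3 overlapped between genotypes. Zfp259 (Zpr1), a protein that binds a translation elongation factor, stood at 28.1, 26.8 and 26.6 and at 40.3, 37.6 and 36.3, a rise of 0.49 (SE 0.10). Zfp185, the LIM protein, stood at 33.1, 23.7 and 32.3 and at 42.3, 51.3 and 59.6, a rise of 0.78 (SE 0.18). Zfp706, a small protein with 1 finger, stood at 78.0, 81.8 and 83.4 and at 107, 119.6 and 132.4, a rise of 0.56 (SE 0.11), the most abundant of the 14. The other 5 rose by 0.85 (Zfp599), 0.58 (Zfp772), 0.53 (Zfp472), 0.44 (Zfp568) and 0.36 (Zfp710), and the first 4 of these 5 have a KRAB box. Of these, Zfp599 passed the level rule through the knockout libraries alone. The calls of Zfp599, Zfp472, Zfp568 and Zfp710 were each lost in 3 of 6 refits without a library, that without knockout replicate 2 among them.

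**Figure D5:**
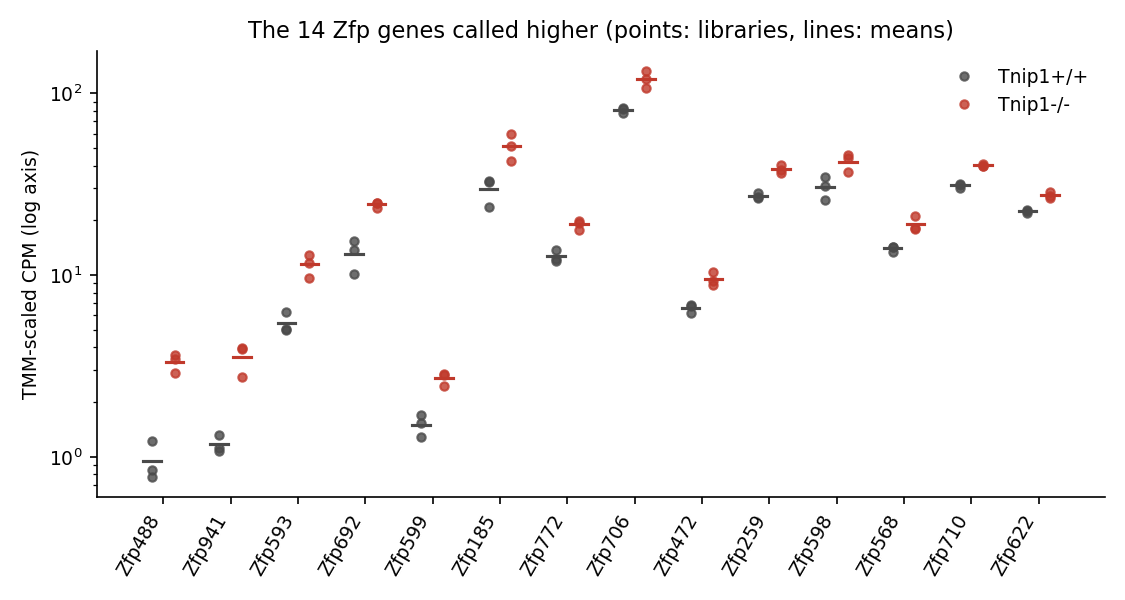
TMM-scaled CPM (log axis) of the 14 members that rose, in each library, with lines for the group means. Every knockout point lies above every wild type point of the same gene, and levels span from about 1 CPM in Zfp488 to about 100 in Zfp706.

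Zfp36 was measured at 41.9, 21.7 and 21.5 CPM in wild type and at 26.3, 31.5 and 15.8 in knockout. One wild type library was high, and the other libraries of both genotypes mixed. The change was -0.21 (SE 0.34, adjusted p = 0.634, edgeR with Benjamini-Hochberg adjustment). It turned to 0.20 without wild type replicate 1 and to 0.03 without knockout replicate 3, so no direction is given. Its relatives Zfp36l1 and Zfp36l2, with the same fold and function, were also uncalled at -0.15 (SE 0.21) and -0.18 (SE 0.16). The deadenylation and decay machinery it works with was described from a list of 33 genes, of which 32 were tested, 8 rose and 3 fell (median 0.17). The 25% that rose are near the 24.5% of all genes of at least 2 CPM, and 9.38% fell against 22.4%. Mapkapk2, the kinase that phosphorylates tristetraprolin, rose by 0.93 (SE 0.12), Zc3h12a, the endonuclease Regnase-1, by 1.49 (SE 0.39), and the competing stabilizer Elavl1 by 0.63 (SE 0.13). The exonuclease Xrn1 fell by 0.56 (SE 0.11) and Dcp1b, a decapping activator, fell by 0.55 (SE 0.15). Of 21 tested mRNAs known as Zfp36 targets (23 listed, Zfp36 among them), 10 rose and 0 fell, with a median of 1.27. Il1b rose from 9.65 to 68.9 CPM (mean of 3 libraries each) and Tnf from 3.82 to 7.35, whereas Il10 was at 2.11 and 1.36 without a call. That list holds cytokines of the inflammation itself and is not independent of the treatment response.

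Of the 5 members with the highest mean CPM, 2 fell. Per kilobase of transcript, Zfp207 (a spindle and splicing protein) was the highest member at 163.9 TMM-scaled CPM per kb in wild type, ahead of Zfp91 at 33.4 and Zfp106 at 32.9. Zfp207 was at 242.5, 275.5 and 250.2 CPM in wild type and 218.4, 237.6 and 247.9 in knockout, with overlap and no call. Zfp106, an RNA-binding protein of nerve and muscle, was at 246.6, 380.4 and 269.6 and at 218.0, 192.4 and 186.4, and fell by 0.59 (SE 0.18). Its call was lost without wild type replicate 3 and without each of the knockout replicates. Zfp644, a partner of the histone methyltransferase G9a, fell by 0.65 (SE 0.12) with 132.9, 154.5 and 137.5 in wild type against 81.4, 94.9 and 95.3 in knockout. Zfp266 and the ubiquitin ligase Zfp91 were below wild type in mean at -0.31 (SE 0.15) and -0.30 (SE 0.12) without a call.

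Silencers of retroelements and imprinted genes did not move together. Zfp809, which silences proviruses, stood at 13.8, 13.7 and 13.3 CPM in wild type and 9.86, 9.44 and 9.08 in knockout and fell by 0.52 (SE 0.12, call lost without knockout replicate 2 or 3), while Zfp568, a placental gene silencer, rose by 0.44 (SE 0.12). Zfp445, which guards imprints, was uncalled at -0.10 (SE 0.09), and Zfp932, which silences retroelements, at -0.14 (SE 0.13). Among general regulators, Zfp148 and Zfp161 (Zbtb14) fell by 0.29 (SE 0.10, with a sign that turned under the GC and length offset) and 0.55 (SE 0.16). The call of Zfp161 was lost without wild type replicate 2 or 3 and without knockout replicate 1 or 2. Zfp143, a promoter-looping factor, was uncalled at -0.27 (SE 0.11), and so were Zfp281 (-0.02, SE 0.18), Zfp217 (0.12, SE 0.13) and Zfp703 (0.45, SE 0.17). The RNA-binding Zfp346 and Zfp326 were both uncalled at 0.08 (SE 0.20 and 0.13).

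The genes that work with KRAB proteins did not share the direction. Of 26 tested corepressor genes, 9 rose and 3 fell, with a median of 0.22, beside 24.5% risen and 22.4% fallen among all genes of at least 2 CPM. Trim28, the scaffold that KRAB boxes bind, stood at 64.6, 58.0 and 86.4 CPM in wild type and 104.3, 98.7 and 110.9 in knockout and rose by 0.59 (SE 0.16). Setdb1 rose by 0.28 (SE 0.09), with an adjusted p of 0.0486 (edgeR with Benjamini-Hochberg adjustment) close to the cut-off of 0.05. The heterochromatin protein Cbx3 rose by 1.24 (SE 0.20) and the histone variant gene H3f3a by 0.77. The chromatin remodellers Chd3 and Atrx fell by 1.05 (SE 0.17) and 0.72 (SE 0.14), and the silencing factor Mphosph8 fell by 0.85 (SE 0.13).

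Other zinc finger families gave mixed counts at the same threshold, to be read against the 22.4% that fell and 24.5% that rose among all genes of at least 2 CPM. Of 29 Zbtb genes, BTB proteins with C2H2 fingers, 11 fell and 2 rose (37.9% and 6.90%), with a median of -0.19. Those shares were near the 39.0% and 4.83% of the Zfp genes, whose median was -0.37. Of 12 Zscan and Zkscan genes, 2 fell and 1 rose (16.7% and 8.33%, median -0.32). Of 14 Klf genes, Kruppel-like factors, 3 fell and 4 rose (21.4% and 28.6%, near the shares of all genes, median -0.06). Of 16 Zc3h genes, which hold CCCH fingers, 4 fell and 4 rose (25% each, also near the shares of all genes, median 0.09). Of 20 Zdhhc genes, palmitoyltransferases that share the zinc-finger label alone, 2 fell and 7 rose (10% and 35%, median 0.23).

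Zfp genes lie in tandem clusters in the mouse genome. Runs with at most 1 other protein-coding gene between neighbours, in the GRCm38 order, numbered 44 and held 145 of the 290 genes. In runs 56 of 145 fell and 5 rose, and outside runs 57 of 145 fell and 9 rose. The counts that fell were thus nearly equal in and outside runs. Over the whole family 39.0% fell and 4.83% rose, against 22.4% and 24.5% of all genes of at least 2 CPM. The difference between clustered and scattered members was not tested. In the longest run, of 10 genes from Zfp84 to Zfp82, 7 fell and 1 (Zfp568) rose, with a median of -0.60 and a range from -1.45 (Zfp30) to 0.44. In a run of 6 from Zfp760 to Zfp947, 5 fell (median -0.82), whereas in a run of 9 from Zfp180 to Zfp94, 2 fell (median -0.09). Neighbours in a cluster are often near-identical copies, and reads that fit several copies may have been split or dropped by the authors' counting, so single values there are uncertain.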

How the data were processed

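Per the labels' protocols, skin biopsies gave total RNA, and libraries were stranded, paired-end and free of most ribosomal RNA. The deposited values were whole-number counts per gene symbol, 1 file per library. Per the submitters' processing notes, the tools named are HTSeq, STAR, BWA, CASAVA 1.7, R 3.2.3 and limma, and the build is mm9; their settings, strand option and annotation are not given in the sources used here, so overlapping and antisense genes cannot be told apart. The 5 summary lines (26.7% to 30.3% of each file) were left out. The libraries were separate animals by the design text.

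Everything else was computed here. The test was edgeR 4.0.16's quasi-likelihood test (R 4.3.3, filterByExpr, TMM factors from 0.898 to 1.095, Benjamini-Hochberg adjustment). Genes were called at an adjusted p under 0.05. Each SE is the log2 fold change over the root of F, and printed levels are CPM on TMM-scaled library sizes. Members and lists were chosen with earlier results of these data known. Genes named are Zfp36, Tnip1, the 10 largest decreases and increases with groups that do not overlap, all called increases, the 5 highest, those at the threshold and a panel of 25, of which 1 (Zfp57, at 1.036 CPM) was below the threshold and 1 (Zfp313) was not matched to a symbol of the files. Other genes were named from the fixed lists. Muscle and fat scores are mean log2 levels of 22 markers. Proteins and GC came from GENCODE M21 (279 members matched by symbol, 11 by an older symbol). Scripts were tested on simulated data. Alternatives used DESeq2 1.42.0, limma 3.58.1 and other settings.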

Additional observations from a re-analysis of the deposited data

How the results depend on the processing

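The numbers of the replicates did not pair the samples: deviations of same-numbered libraries correlated at 0.0115, -0.209 and 0.193. With the replicate block, 86 members fell and 9 rose, with a median of -0.36. Leaving out 1 library at a time gave 69 to 97 decreases (fewest without knockout replicate 2, 73 without knockout replicate 1), 8 to 14 increases (8 without knockout replicate 2, 9 without knockout replicate 1) and medians of -0.38 to -0.32. Calls held in all 6 of these refits for 62 of the 113 decreases and 8 of the 14 increases. The same refits gave 5471 to 6866 calls over all genes, 7 to 13 in the corepressor list and 6 to 11 in the decay list, of 7525, 12 and 11. With library totals, 8 members rose and the median was -0.51, and with upper-quartile factors it was -0.45. With the muscle and fat score, 7 members fell, 1 rose, 1800 genes were called in all, and 0 corepressor and 1 decay gene were called. With the GC and length offset, 23 members rose, the median was -0.27 and 17 decay genes were called. A threshold of 5 CPM, or of 2 CPM in knockout alone, gave a median of -0.32. The cause of these changes was not tested. DESeq2, limma voom, robust dispersion and both other filters kept the counts of called members within 1.5 times.

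Among all 290 members, 230 lay below 0, against 204 with the GC and length offset and 251 with library totals. Among the named genes, signs turned for 8 without a call and for Zfp148. Leaving out 1 library at a time, Zfp36 ran from -0.41 to 0.20 (above 0 without wild type replicate 1, and at 0.03 without knockout replicate 3), Zfp281 from -0.16 to 0.13, Zfp516 from -0.13 to 0.19 and Zfp346 from -0.06 to 0.33. With the GC and length offset, Zfp148, Zfp445, Zfp932, Zfp281 and Zfp516 stood at 0.02, 0.12, 0.03, 0.18 and 0.13. With library totals, Zfp217, Zfp326 and Zfp346 stood at -0.04, -0.07 and -0.08, and with upper-quartile factors Zfp326 and Zfp346 stood at -0.0024 and -0.003. With the muscle and fat score, Zfp281, Zfp346 and Zfp516 stood at 0.35, -0.09 and 0.0016. With DESeq2, Zfp281 and Zfp516 stood at 0.0039 and 0.02, and without haemoglobin, mitochondrial, histone and small RNA genes at 0.0018 and 0.02. Zfp516 also stood at 0.01 with voom and 0.02 with the replicate block.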
